A study of Mus musculus with 15 samples.

Results

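The nuclear genes of the mitochondrial respiratory chain were followed in mouse retinal endothelial cells that lacked 1 of 3 components of a vascular signalling pathway. Members were the probe sets whose platform gene symbol begins with Nduf, Uqcr, Cox4 to Cox8 or Atp5, or is Sdha, Sdhb, Sdhc or Sdhd. The rule found 179 probe sets with a single symbol, which stood for 90 genes, and 10 probe sets with several symbols, of 45101 probe sets and 18194 genes on the array. By complex these were 34 genes of complex I, 8 complex I assembly factors, 4 genes of complex II, 8 of complex III, 19 of complex IV and 17 of complex V. Ndufa4 and its paralog Ndufa4l2 were placed with complex IV.

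Endothelial cells were purified from adult retinas with beads that carry an antibody to PECAM, a surface protein of endothelium, and 1 pool of 5 to 10 mice was hybridised to each array. There were 3 arrays from Fz4-/- mice (Fz4 KO, without the receptor Frizzled4), 3 from Lrp5-/- mice (Lrp5 KO, without the coreceptor Lrp5), 3 from mice labelled Norrin- (Norrin KO, without the secreted ligand Norrin) and 6 from wild-type mice (WT). All groups were adult, on a mixed C57Bl6/129 background and labelled as mixed in sex. The labels give neither the age beyond adult nor the alleles, and the pooling of mice leaves no values of single animals.

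Norrin, Frizzled4 and Lrp5 form a ligand and receptor complex that stabilises beta-catenin, which acts with TCF/LEF factors on its target genes. The pathway is needed for growth of the retinal vasculature and for its barrier, and its loss leaves the retina short of vessels. The respiratory chain passes electrons from NADH (complex I) and succinate (complex II) through complex III to oxygen at complex IV, and complex V makes ATP from the proton gradient that results. Most subunits are nuclear-encoded and present throughout the body, but a few, among them Cox4i2 and Ndufa4l2, have a tissue-restricted or oxygen-dependent expression.

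The genotype labels held for the genes that the arrays could check. Fzd4 averaged 4.22 ± 0.30 in Fz4 KO and 12.09 ± 0.20 in WT on the log2 scale, and Lrp5 averaged 4.91 ± 0.45 in Lrp5 KO and 7.69 ± 0.27 in WT (SD, n = 3 and 6). Ndp, which encodes Norrin, lay near background in Norrin KO and WT alike (4.13 ± 0.24 and 4.44 ± 0.19), so it checks nothing. The endothelial markers Pecam1 and Cdh5 were bright on every array, from 10.91 and 11.37 upwards. Lrp5 KO 1 lay farthest from the other arrays on the second principal component (17.3% of the variance), and WT 4, at 43.2, lay apart from the other WT arrays, at -59.7 to -34.8. Xist, expressed from the inactive X of females, was 4.12 to 4.98 on the 3 Norrin KO arrays, against 4.88 to 12.27 on the WT arrays, and the Y-linked Eif2s3y was 9.77 to 10.32 on the Norrin KO arrays, against 2.69 to 10.29 on the WT arrays. Xist was also low on Lrp5 KO 1 and 2 (5.90 and 4.76) and on WT 4 and 5 (5.99 and 4.88). Eif2s3y was low on Fz4 KO 3 (3.25), Lrp5 KO 3 (3.21), WT 3 (2.69) and WT 6 (2.81). These arrays, like the 3 Norrin KO arrays, thus go against the label of mixed sex. The X-linked members Ndufa1 and Ndufb11 passed the test in none of the 3 mutants against WT. The signal of the 3′ end minus that of the 5′ end of the actin control, a measure of RNA length, was 1.05 to 2.92 on the Norrin KO arrays, 0.58 to 0.86 on the Fz4 KO arrays, 0.56 to 0.96 on the Lrp5 KO arrays and 0.69 to 1.04 on the WT arrays.

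Most of the respiratory chain did not pass the test in any mutant. A gene passed at a Benjamini-Hochberg adjusted p under 0.05 over all 18194 genes in limma, and all values are log2 signals or log2 differences from WT with their standard error. Of the 90 genes, 58 (64.4%) passed in none of the 3 mutants, near the 66.7% of all genes. In all 3 mutants 2 members (2.22%) rose and 2 (2.22%) fell, against 4.49% and 3.08% of all genes. In Fz4 KO 4 members rose and 2 fell (6.67% of members, against 16.7% of all genes called, 10.7% higher and 6.08% lower). In Lrp5 KO 2 rose and 5 fell (7.78%, against 12.9% of all genes, 5.63% higher and 7.27% lower). In Norrin KO 19 rose and 10 fell (32.2%, against 25.8% of all genes, 16.7% higher and 9.13% lower). With the 3 mutants averaged, 7 rose and 11 fell (20% of members, against 23.9% of all genes, 14% higher and 9.91% lower). The 3 mutants were set against the same 6 WT arrays, so their differences share the WT error.

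**Figure D1:**
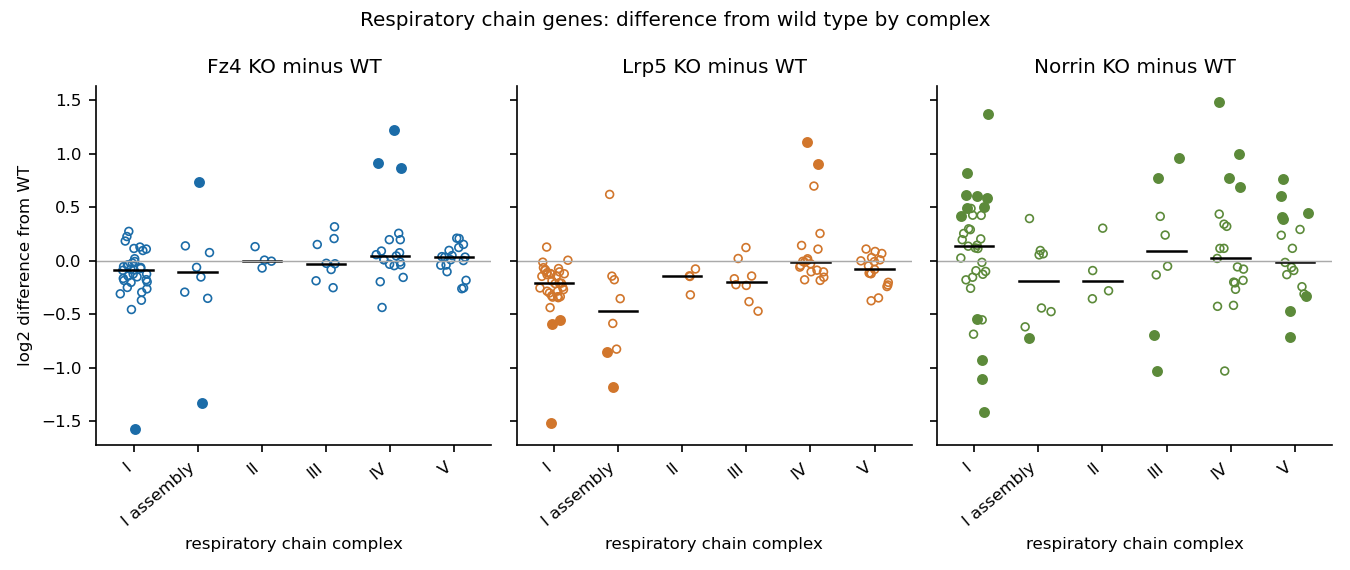
Log2 difference from WT of each of the 90 genes (points), by complex, in Fz4 KO, Lrp5 KO and Norrin KO; filled points passed the test and black lines are medians over the genes. Fz4 KO and Lrp5 KO points lie close to 0 except for a few genes of complexes I and IV and the assembly factors, and Norrin KO points spread more widely in both directions.

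The typical member moved less than the typical gene in Fz4 KO and Lrp5 KO, and about as much in Norrin KO. The median absolute difference was 0.13, 0.15 and 0.32 over the 90 genes in Fz4, Lrp5 and Norrin KO. Over all genes it was 0.27, 0.23 and 0.33. Members were also brighter, with array medians that averaged 10.91 in WT, against 6.98 over all genes. Their median standard error was 0.14, against 0.20 over all genes. The part of brightness and noise in the smaller differences was not tested. The median log2 difference over the 90 genes was -0.03 in Fz4 KO, -0.14 in Lrp5 KO and 0.06 in Norrin KO, beside -0.03, -0.02 and 0.04 over all genes. In Fz4 KO 84 of the 90 members lay within 0.5 of WT, in Lrp5 KO 79 and in Norrin KO 65, and over all genes these shares were 72.3%, 77.5% and 65.8%. The 34 complex I genes had a median of -0.09 in Fz4 KO, -0.21 in Lrp5 KO and 0.14 in Norrin KO. The 8 assembly factors had medians of -0.11, -0.47 and -0.19 in the same order of mutants. In Lrp5 KO 2 of the 34 complex I genes lay above WT, and 3 of those below it passed. The median complex I signal was 10.29, 10.58 and 10.77 on Lrp5 KO 1 to 3, against 10.59 to 11.03 on the WT arrays. An earlier analysis of these data matched Lrp5 KO 1 to 3 with WT 4 to 6 by spike controls and sex genes, a match that the labels do not state, and within these pairs the median differed by -0.30, -0.23 and -0.26.

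**Figure D2:**
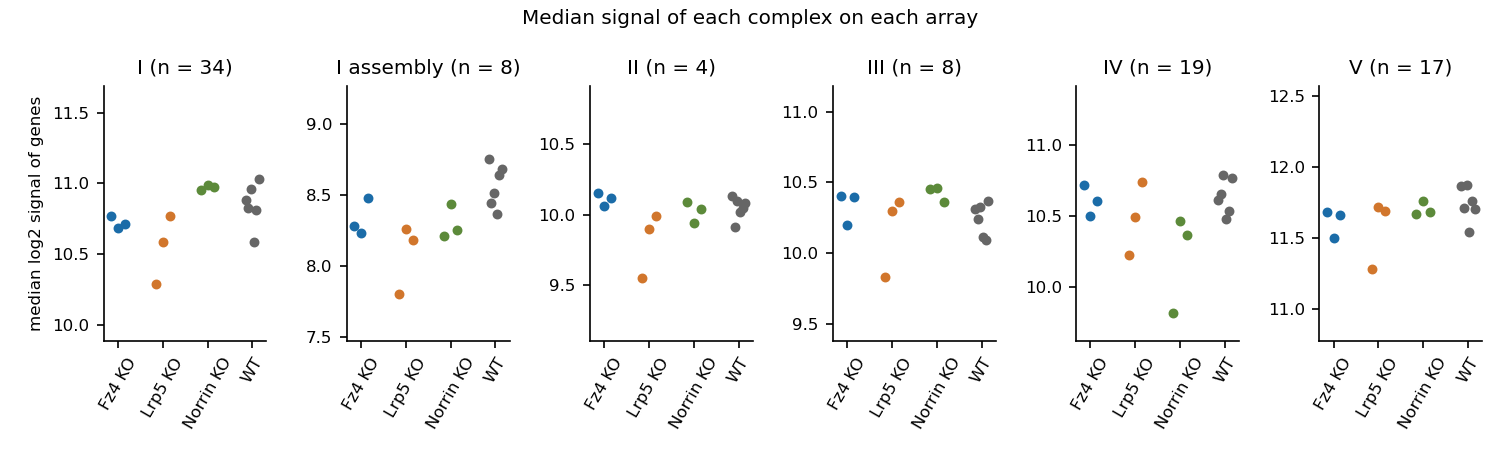
Median log2 signal of the genes of each complex on each array, for Fz4 KO, Lrp5 KO, Norrin KO and WT, with the number of genes in brackets and a range of equal width on every axis. All 3 Lrp5 KO arrays lie below WT for the assembly factors, and Lrp5 KO 1 gives the lowest point in every panel except complex IV. For complex IV all 3 Norrin KO arrays lie below WT, and Norrin KO 1 is lowest. The complex IV median is on every array the signal of a single gene, Ndufa4, which passed in no mutant. The median difference of the 19 complex IV genes in Norrin KO was 0.02, with 4 called higher and 0 lower.

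Complex I: an accessory subunit and an assembly factor fell in all 3 mutants. Ndufa7, an accessory subunit of the arm of complex I that reaches into the matrix, had signals of 10.54, 10.38 and 10.69 on the Fz4 KO arrays, 10.45, 10.60 and 10.72 on the Lrp5 KO arrays and 10.77, 10.68 and 10.63 on the Norrin KO arrays, against 11.92, 12.12 and 12.23 as the lowest, median and highest of the 6 WT arrays. Every mutant array lay more than 1 log2 unit below the lowest WT array. Ndufa7 fell by 1.57 ± 0.12 in Fz4 KO (adjusted p = 3.02e-07), by 1.52 ± 0.12 in Lrp5 KO (6.51e-07) and by 1.41 ± 0.12 in Norrin KO (9.29e-07, limma). The array carried 5 probe sets for Ndufa7, and the difference was negative in all 5 in each mutant. The second brightest had differences of -1.07, -1.06 and -1.07 in Fz4, Lrp5 and Norrin KO and passed in each (11.9%, 7.69% and 20.5% of all probe sets did), while the dimmest had differences of -0.37, -0.63 and -0.16 and passed in Lrp5 KO only. The call of Ndufa7 was kept in each mutant under every alternative run on its gene value.

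Ndufaf7, a methyltransferase that acts in the assembly of complex I, had signals of 7.82, 7.57 and 7.58 on the Fz4 KO arrays, 7.43, 7.97 and 8.03 on the Lrp5 KO arrays and 8.03, 8.44 and 8.33 on the Norrin KO arrays, against 8.77, 8.89 and 9.33 as the lowest, median and highest in WT. The mutant arrays did not overlap with WT, and Norrin KO lay nearest to it. Ndufaf7 fell by 1.33 ± 0.17 in Fz4 KO (adjusted p = 6.24e-05), by 1.18 ± 0.17 in Lrp5 KO (0.000268) and by 0.72 ± 0.17 in Norrin KO (0.00609, limma). Its 1 probe set is of a kind that can also bind related transcripts.

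**Figure D3:**
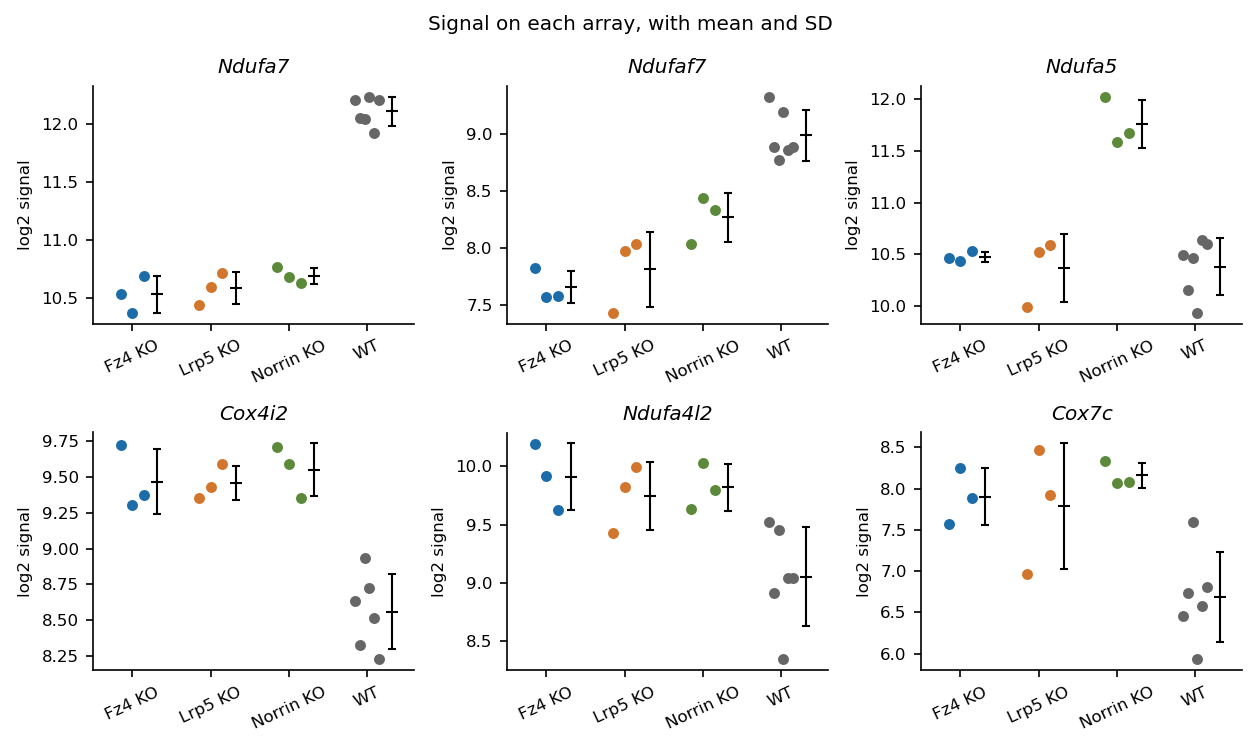
Log2 signal of Ndufa7, Ndufaf7, Ndufa5, Cox4i2, Ndufa4l2 and Cox7c on each array (points) of Fz4 KO, Lrp5 KO, Norrin KO (n = 3 each) and WT (n = 6), with mean and SD beside them. All 9 mutant arrays lie below WT for Ndufa7 and Ndufaf7 and above WT for Cox4i2, and Ndufa5 is high in Norrin KO alone.

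The genes on either side of Ndufa7 on chromosome 17 were examined after its value was seen. In a gene table of the GRCm38.p6 assembly 5 other protein-coding genes lie in its neighbourhood, all of them measured. Angptl4, a secreted inhibitor of lipoprotein lipase, fell in all 3 mutants, with differences of -2.98 ± 0.22, -3.66 ± 0.22 and -2.45 ± 0.22 in Fz4, Lrp5 and Norrin KO. Kank3, of a family of regulators of the actin cytoskeleton, fell with differences of -1.73 ± 0.26, -1.86 ± 0.26 and -1.26 ± 0.26. Cd320, the receptor that takes up vitamin B12 bound to transcobalamin, fell with differences of -2.22 ± 0.18, -2.44 ± 0.18 and -2.47 ± 0.18. Rps28, a ribosomal protein gene, lies between Kank3 and Ndufa7, with 9 bases between it and Ndufa7. This gap is one of coordinates, and the strand of Rps28 was not read. Rps28 did not pass, with differences of 0.04 ± 0.10, 0.06 ± 0.10 and 0.23 ± 0.10 (adjusted p = 0.821, 0.813 and 0.111, limma). Kifc1, a mitotic kinesin on the far side of Cd320, rose by 1.54 ± 0.29 in Fz4 KO and 1.33 ± 0.29 in Norrin KO and had a difference of 0.63 ± 0.29 in Lrp5 KO (0.195). Ndufa7 itself was picked by its fall and is not counted here. Of the 5 neighbours, Angptl4, Kank3 and Cd320 fell in all 3 mutants, as did 3.08% of all genes. Rps28, which was bright in WT at 13.44 and lies among them, did not pass.

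**Figure D4:**
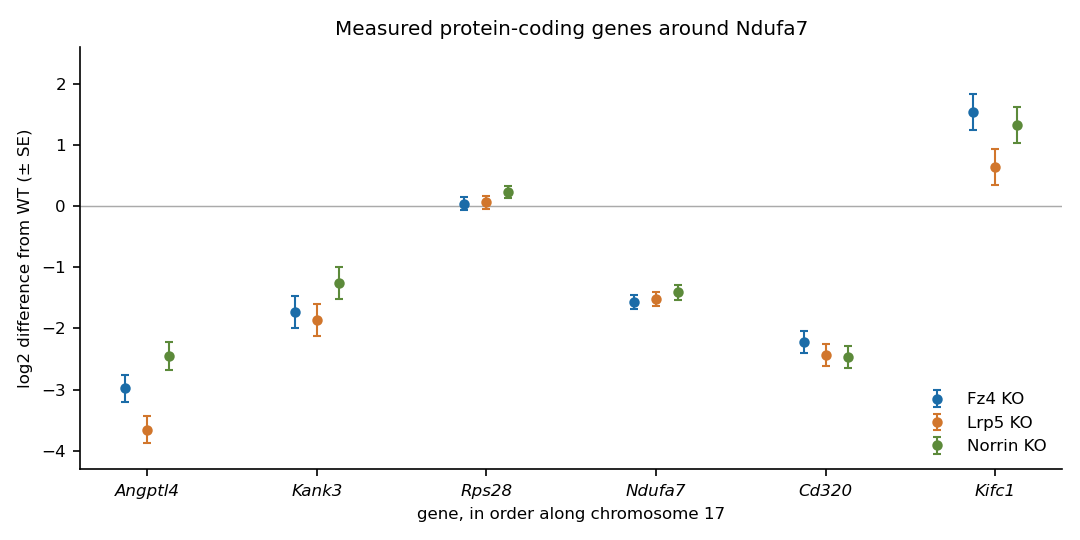
Log2 difference from WT (point, with SE) of the measured protein-coding genes around Ndufa7 in their order on chromosome 17, for Fz4 KO, Lrp5 KO and Norrin KO. Angptl4, Kank3, Ndufa7 and Cd320 lie below 0 in each mutant, Rps28 lies near 0 and Kifc1 above it.

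Around Ndufaf7, also on chromosome 17, fewer neighbours were measured, and Cebpz, which overlaps the bases before its start, had no value. The neighbour Prkd3, a protein kinase, had differences of -0.10, -0.17 and 0.02 in Fz4, Lrp5 and Norrin KO and passed in none. Cebpzos had -0.47, -0.74 and -0.73, and passed in Norrin KO only (adjusted p = 0.0364, limma).

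The letters upstream of these genes were read from the RefSeq promoter table (GRCm38.p6), because the TCF/LEF factors through which the pathway acts bind a short core, CTTTGAT. A search of the 250 bases before the start, on both strands, found this core in 1005 of 27025 genes (3.72%) and in 1 of the 74 members in the table (1.35%), Ndufa5. Of the genes that fell around Ndufa7, Cd320 has a copy and Ndufa7 and Kank3 have none. Angptl4 has no window in the promoter table and was not searched. The window of Ndufa7 overlaps Rps28 and is not shown. The windows of Ndufa5 (chr6:24527691-24527940, minus strand) and Cd320 (chr17:33842841-33843090, plus strand) are shown because they hold the core, here in capitals as its reverse complement, at positions -156 and -67 from the start.
Ndufa5: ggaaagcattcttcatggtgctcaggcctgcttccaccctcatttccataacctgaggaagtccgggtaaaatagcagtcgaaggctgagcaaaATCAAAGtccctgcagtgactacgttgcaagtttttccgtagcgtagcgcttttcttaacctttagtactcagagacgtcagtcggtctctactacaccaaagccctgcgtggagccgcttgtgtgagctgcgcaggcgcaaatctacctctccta
Cd320: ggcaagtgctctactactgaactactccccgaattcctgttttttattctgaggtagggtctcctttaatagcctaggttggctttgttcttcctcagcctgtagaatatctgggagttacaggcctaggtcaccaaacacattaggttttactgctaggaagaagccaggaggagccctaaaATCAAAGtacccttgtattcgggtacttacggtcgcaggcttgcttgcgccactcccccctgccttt
Cores of factors that are known to act on respiratory chain genes were found in a larger share of members than of all genes, which was not tested. The core of NRF1, GCATGCGC, occurred in 8 of the 74 members (10.8%, against 2.56% of all genes) and that of ETS factors, CGGAAGT, to which GABP belongs, in 9 (12.2%, against 5.58%). Ndufaf7 has an ETS core at position -70, in a window that overlaps Cebpz and, in the gene table, Ndufaf7 itself. Members that hold a motif moved in both directions: of the 8 with the NRF1 core, Ndufa8 fell in Lrp5 KO and Norrin KO, Ndufaf4 rose in Fz4 KO, and Atp5l and Ndufa6 rose in Norrin KO. These are matches of letters and do not show binding.

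Other complex I genes passed in single mutants. Ndufaf4, which with Ndufaf3 builds the part of complex I that holds the quinone site, had signals of 8.99, 8.73 and 8.98 in Fz4 KO, against 7.51, 8.26 and 8.42 as the lowest, median and highest in WT. It rose by 0.74 ± 0.22 in Fz4 KO (adjusted p = 0.0337, limma) and had differences of 0.62 in Lrp5 KO and 0.39 in Norrin KO. The call in Fz4 KO was lost under 7 of 25 alternatives, among them leaving out any 1 Fz4 KO array (adjusted p up to 0.130, limma). In Lrp5 KO its partner Ndufaf3 fell by 0.85 ± 0.23, with 7.46, 8.55 and 8.34 against 8.62, 8.92 and 9.37 in WT. The accessory subunits Ndufa3 and Ndufa8 fell in Lrp5 KO, with differences of -0.59 ± 0.15 and -0.55 ± 0.16. The calls of Ndufaf3, Ndufa3 and Ndufa8 in Lrp5 KO were lost under 6, 5 and 10 of 25 alternatives. Without Lrp5 KO 1, 2 members fell in Lrp5 KO in place of 5, and without WT 4, 8 did. The core subunits Ndufs1, Ndufs3, Ndufs7, Ndufs8, Ndufv1 and Ndufv2, which carry the flavin, the iron-sulphur clusters or the quinone site, did not pass in Fz4 KO or Lrp5 KO, with differences from -0.34 (Ndufs7 in Lrp5 KO) to 0.13 (Ndufs1 in Fz4 KO).

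Complex II did not pass in any mutant. The flavoprotein Sdha had differences of 0.01, -0.08 and -0.09 in Fz4, Lrp5 and Norrin KO, and the iron-sulphur subunit Sdhb had 0.13, -0.15 and 0.30. The membrane anchors Sdhc and Sdhd ranged from -0.36 to 0.00 over the 3 mutants. At an unadjusted p under 0.05, 0 of the 4 genes differed in Fz4 KO, 1 in Lrp5 KO and 2 in Norrin KO in limma. Complex III did not pass in Fz4 KO or Lrp5 KO either, where its 8 genes lay between -0.47 (Uqcr11 in Lrp5 KO) and 0.32 (Uqcrq in Fz4 KO), with 0 and 1 of them at an unadjusted p under 0.05.

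Complex IV: a tissue-restricted isoform rose in all 3 mutants while its common counterpart did not pass. Cox4i2, the paralog of the regulatory subunit Cox4i1 that is found in lung and induced at low oxygen, had signals of 9.73, 9.30 and 9.38 on the Fz4 KO arrays, 9.35, 9.43 and 9.59 on the Lrp5 KO arrays and 9.71, 9.59 and 9.35 on the Norrin KO arrays, against 8.23, 8.57 and 8.94 as the lowest, median and highest in WT. All 9 mutant arrays lay above all 6 WT arrays. Cox4i2 rose by 0.91 ± 0.16 in Fz4 KO (adjusted p = 0.00122), by 0.90 ± 0.16 in Lrp5 KO (0.00186) and by 0.99 ± 0.16 in Norrin KO (0.000484, limma). Cox4i1 had differences of 0.09, -0.03 and -0.08. Cox4i2 has 1 probe set, and its call was kept under every alternative but 1: without Lrp5 KO 1, Lrp5 KO 3 and WT 4 together, which leaves 1 Lrp5 KO array whose spread is taken from the other groups, the adjusted p in Lrp5 KO was 0.0961.

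Ndufa4l2, a paralog of the complex IV subunit Ndufa4 that is induced by HIF-1 and lowers electron flow, had signals of 10.20, 9.92 and 9.63 on the Fz4 KO arrays, 9.43, 9.82 and 10.00 on the Lrp5 KO arrays and 9.63, 10.03 and 9.80 on the Norrin KO arrays, against 8.34, 9.04 and 9.52 in WT. Fz4 KO and Norrin KO did not overlap with WT, and 1 Lrp5 KO array lay within the WT range. Ndufa4l2 rose by 0.86 ± 0.23 in Fz4 KO (adjusted p = 0.0190) and by 0.77 ± 0.23 in Norrin KO (0.0255), and its difference of 0.70 ± 0.23 in Lrp5 KO did not pass (0.0655, limma). With the arrays matched by spike controls as a block, a match that the labels do not state, it was 0.94 in Lrp5 KO (adjusted p = 0.0117, limma). Under the same block the difference in Fz4 KO was smaller, at 0.62 (adjusted p = 0.0449, limma). Within the 3 Lrp5 KO pairs it was 1.08, 0.78 and 0.96. The difference between Fz4 KO and Lrp5 KO did not pass for any member. Ndufa4 had differences of -0.03, -0.15 and -0.43 and passed in none. Among the arrays left out in turn, the call of Ndufa4l2 in Fz4 KO was lost without Fz4 KO 1 or Fz4 KO 2, and that in Norrin KO without Norrin KO 2 or Norrin KO 3.

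Cox7c, a small structural subunit, was called higher in all 3 mutants from dim signals. Its brighter probe set read 7.57, 8.26 and 7.88 on the Fz4 KO arrays, 6.97, 8.47 and 7.93 on the Lrp5 KO arrays and 8.34, 8.07 and 8.08 on the Norrin KO arrays, against 5.93, 6.66 and 7.60 as the lowest, median and highest in WT. Only Norrin KO did not overlap with WT. Cox7c rose by 1.22 ± 0.33 in Fz4 KO, by 1.11 ± 0.33 in Lrp5 KO and by 1.48 ± 0.33 in Norrin KO (adjusted p = 0.0203, 0.0414 and 0.00467, limma). In Lrp5 KO the call was lost under 14 of 25 alternatives. Its other probe set read 3.37 in WT, below the lower quartile of every array (3.90 to 4.29).

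The other isoform pairs of complex IV did not pass. Cox6a1 and its muscle form Cox6a2, Cox6b1 and its testis form Cox6b2, Cox7a2, its muscle form Cox7a1 and Cox7a2l, and Cox8a with Cox8b and Cox8c gave no call in any mutant. Cox7a1, Cox7b2, Cox8b and Cox8c had WT means of 4.85 to 5.43, below the median of all probe sets on every array (5.88 to 6.04), as had Ndufb1 and Ndufb4, so a low level could not be followed there. Ndufb4 was bright on 2 probe sets that it shares with the copies Ndufb4b and Ndufb4c (11.21 and 9.92 in WT), which did not pass in any mutant. The subunits Cox5a and Cox5b did not pass in Fz4 KO or Lrp5 KO.

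Markers of pericytes, the mural cells of small vessels, were present beside the endothelial ones and moved in both directions. Of 14 pericyte and smooth muscle markers, 3 rose and 1 fell in Fz4 KO, 3 rose and 1 fell in Lrp5 KO, and 4 rose and 2 fell in Norrin KO. Over all genes 10.7%, 5.63% and 16.7% rose and 6.08%, 7.27% and 9.13% fell, in the same order of mutants. The median difference of the 14 markers was 0.33, 0.23 and 0.01, beside -0.03, -0.02 and 0.04 over all genes. Their mean signal per array was 10.82 to 10.98 in Fz4 KO, 10.61 to 11.12 in Lrp5 KO and 10.70 to 10.84 in Norrin KO, against 10.54 to 10.86 in WT. Of the defining markers, Abcc9 rose by 0.72, 0.87 and 0.54 in Fz4, Lrp5 and Norrin KO, Vtn fell with differences of -2.01, -0.84 and -2.40, and Pdgfrb had differences of 0.45, 0.51 and -0.02 and Rgs5 of 0.29, 0.21 and -0.15 that did not pass. Higd1b, another pericyte marker, had 0.43, 0.23 and 0.21. In WT the dimmest of the 14 were Cnn1, of smooth muscle, at 4.80 and Anpep at 6.49. Of 15 macrophage and microglia markers, 9 rose in Fz4 KO, 5 in Lrp5 KO and 6 in Norrin KO and none fell, with a mean signal of 10.16 to 10.66, 9.79 to 10.29 and 10.04 to 10.66, against 8.56 to 9.89 in WT. The part of either cell type in the rise of Cox4i2, Ndufa4l2 and Cox7c was not tested, and in such pools more cells of a type and more RNA per cell cannot be told apart.

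Markers of further cell types were counted in the same fit. In Fz4, Lrp5 and Norrin KO 10.7%, 5.63% and 16.7% of all genes rose and 6.08%, 7.27% and 9.13% fell. Of 12 endothelial markers, Fz4 KO had 3 that rose and 2 that fell, Lrp5 KO 2 and 2, and Norrin KO 3 and 4. Of 14 photoreceptor markers, 1, 4 and 1 rose and 0, 0 and 1 fell in Fz4, Lrp5 and Norrin KO, with Gnat1 higher in each. Of 12 neuronal markers, 2, 2 and 4 rose, and of 10 glial markers, 1, 2 and 2 rose and 1, 1 and 2 fell. Of 5 red blood cell genes, 0 rose and 3, 2 and 3 fell.

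Complex V did not pass in Fz4 KO or Lrp5 KO. Its 17 genes lay between -0.26 and 0.21 in Fz4 KO and between -0.37 and 0.11 in Lrp5 KO, with 1 and 2 of them at an unadjusted p under 0.05 in limma. The catalytic subunits Atp5a1 and Atp5b had differences of 0.05 and 0.21 in Fz4 KO and of 0.01 and 0.09 in Lrp5 KO, and Atp5c1, the rotating shaft, had -0.04 and -0.12. The 3 genes for the ring in the membrane, Atp5g1, Atp5g2 and Atp5g3, encode the same mature protein and ranged from -0.20 to 0.15 over both mutants.

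In Norrin KO more members passed, and they moved in both directions within complexes I, III and V. In complex I 8 rose and 4 fell, in complex III 2 and 2, in complex IV 4 and 0, in complex V 5 and 3, and 1 assembly factor fell. Over all genes 16.7% rose and 9.13% fell in Norrin KO. The largest rise outside Cox7c was that of Ndufa5, an accessory subunit next to the quinone module, with 12.02, 11.58 and 11.67 in Norrin KO, against 9.94, 10.48 and 10.64 as the lowest, median and highest in WT. Norrin KO lay above every other array, and Ndufa5 rose by 1.37 ± 0.18 (adjusted p = 7.38e-05, limma), with differences of 0.10 in Fz4 KO and -0.01 in Lrp5 KO. The core subunit Ndufs7 rose by 0.82 ± 0.17, with 12.27, 11.70 and 11.97 against 10.87, 11.19 and 11.33 in WT. The NADH-binding subunit Ndufv1 rose by 0.58 ± 0.15, and the accessory subunits Ndufb6, Ndufc1, Ndufc2, Ndufa6 and Ndufa2 by 0.61, 0.61, 0.50, 0.49 and 0.42.

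Falls of similar size stood beside these rises. Ndufb10, an accessory subunit of the membrane arm, had 10.20, 11.30 and 11.17 in Norrin KO, against 11.91, 12.02 and 12.05 in WT. All 3 arrays lay below WT, Norrin KO 1 by the most, and Ndufb10 fell by 1.11 ± 0.19 (adjusted p = 0.000751, limma). Ndufb9, also of the membrane arm, fell by 0.92 ± 0.14 and Ndufa8 had a difference of -0.54 ± 0.16 that passed.

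The 2 core proteins of complex III, which face the matrix and stand in equal number in the complex, moved apart in their transcripts. Uqcrc1 had 8.54, 8.52 and 8.83 in Norrin KO, against 9.31, 9.69 and 9.84 in WT, and Uqcrc2 had 12.82, 12.51 and 12.43 in Norrin KO, against 11.59, 11.86 and 11.89 in WT. Neither overlapped with WT. Uqcrc1 fell by 1.03 ± 0.14 (adjusted p = 9.76e-05) and Uqcrc2 rose by 0.77 ± 0.12 (0.000322, limma). The other Uqcrc2 probe set in use had a difference of 0.07. Among the small subunits, Uqcrq rose by 0.96 ± 0.22 and Uqcrb fell by 0.70 ± 0.12, and the Rieske iron-sulphur protein Uqcrfs1 had a difference of -0.05.

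In complex IV the subunit Cox5b rose by 0.69 ± 0.13, with 13.41, 13.22 and 13.29 in Norrin KO, against 12.33, 12.66 and 12.80 in WT. The call of Cox5b was lost without probe sets ending in x or s (adjusted p = 0.116, limma). The rest of the rises in complex IV were Cox4i2, Ndufa4l2 and Cox7c as above. In complex V the rises were those of Atp5md, Atp5j2, Atp5mpl, Atp5l and Atp5e, by 0.76, 0.61, 0.45, 0.41 and 0.39, of which the first 4 are small proteins of the membrane part. Atp5j, Atp5pb and Atp5h, of the stalk that holds the catalytic head in place, fell with differences of -0.71, -0.47 and -0.33. The Norrin KO calls of Atp5e, Atp5h and Ndufb6 were each lost under 15 of 23 or 24 alternatives. The catalytic subunits Atp5a1 and Atp5b had differences of 0.29 and -0.02 and did not pass. Of the 10 probe sets with several symbols, 1 for Ndufa11 rose by 0.74 and 1 for Ndufs5 fell by 0.73 in Norrin KO, and none passed in Fz4 KO or Lrp5 KO.

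Different probe sets of the same gene did not always give the same size of difference in Norrin KO. Of the 29 genes called, 14 had another probe set above the lowest array median, 22 such probe sets in all. Of these, 21 had the same sign as the gene's call and 13 passed in the same direction, and no gene had calls in opposite directions. Ndufa5 rose on both of its probe sets (1.37 and 0.96), and Ndufs7 had 0.82 on one and 0.15 on the other, Ndufb9 -0.92 and -0.10. The 3′ to 5′ gap of the control transcripts was widest on Norrin KO 1 (2.92 for actin and 2.99 for Gapdh). On the other Norrin KO arrays the Gapdh gap was 0.89 and 1.42, against 0.97 to 1.31 on the WT arrays. The part of this gap in the Norrin KO differences was not tested. Without Norrin KO 1, 15 members rose and 8 fell.

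**Figure D5:**
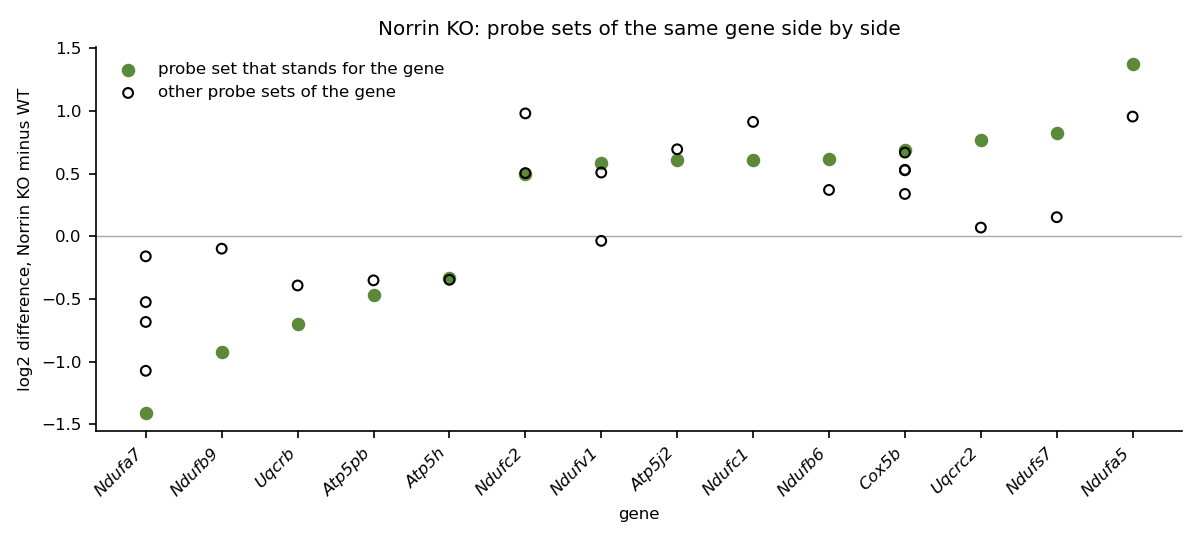
Log2 difference between Norrin KO and WT on each probe set of the 14 called genes that have more than 1 probe set above the lowest array median; filled points are the probe set that stands for the gene and open points its others. Open and filled points lie on the same side of 0 except for 1 open point of Ndufv1, but for Uqcrc2, Ndufs7 and Ndufb9 the open point lies near it, as do single open points of Ndufa7 and Ndufv1.

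The mutants were also compared with each other, which tests whether their differences from WT differ. Between Fz4 KO and Lrp5 KO none of the 90 members passed in limma, 2 had an unadjusted p under 0.05, and 0.225% of all genes were called, 0.159% higher and 0.066% lower. Between Fz4 KO and Norrin KO 3 members were higher and 9 lower in Fz4 KO (13.3%, against 2.32% of all genes called, 0.896% higher and 1.43% lower). Between Lrp5 KO and Norrin KO 4 were higher and 19 lower in Lrp5 KO (25.6%, against 11.9% of all genes, 2.43% higher and 9.5% lower). Ndufa5, Ndufs7, Uqcrc2, Atp5md and Ndufc1 were lower in Fz4 KO than in Norrin KO, with differences of -1.28, -1.09, -0.85, -0.76 and -0.80. Uqcrc1, Ndufb9 and Atp5pb were higher in Fz4 KO than in Norrin KO, with differences of 1.00, 0.80 and 0.57. Against Lrp5 KO, Ndufa5, Uqcrq, Ndufs7 and Uqcrc2 stood out with -1.39, -1.18, -1.16 and -0.94, as Lrp5 KO minus Norrin KO. These counts rest on the spread shared by all 15 arrays: with only the groups compared in the fit they were 0 and 1, and without Lrp5 KO 1, Lrp5 KO 3 and WT 4 the second was 0.

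Genes around the chain were read from lists of related functions. For the list counts here and below, 10.7%, 5.63% and 16.7% of all genes rose in Fz4, Lrp5 and Norrin KO. The shares that fell were 6.08%, 7.27% and 9.13%. ND5, the only subunit encoded by mitochondrial DNA with a symbol of its own on the array, had differences of -0.09, 0.08 and -0.35 in Fz4, Lrp5 and Norrin KO and did not pass. Of 36 assembly factors outside the symbol rule, Fz4 KO had 0 that rose and 3 that fell, Lrp5 KO 0 and 7, and Norrin KO 5 and 2. Sdhaf1, which inserts iron-sulphur clusters into complex II, fell with differences of -0.61, -0.96 and -0.60, and Acad9, an assembly factor of complex I related to the acyl-CoA dehydrogenases, fell by 0.86 in Fz4 KO and by 1.03 in Norrin KO. Of 7 electron carriers and related genes, cytochrome c (Cycs) rose by 0.48 in Fz4 KO. Etfb and Etfdh, which feed electrons from fatty acid oxidation into the chain, fell in Lrp5 KO (-0.71 and -0.58) and in Norrin KO (-1.39 and -0.65), where Etfa fell by 0.35 as well.

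Of 13 fatty acid oxidation genes none rose in limma in any mutant, and 3 fell in Fz4 KO, 7 in Lrp5 KO and 3 in Norrin KO, with medians of -0.36, -0.51 and -0.15. Over all genes 6.08%, 7.27% and 9.13% fell. Cpt2, which releases fatty acids from carnitine inside mitochondria, fell with differences of -1.23 ± 0.25, -1.93 ± 0.25 and -0.78 ± 0.25, and Hadh, a dehydrogenase of beta-oxidation, with -0.51, -0.49 and -0.46. Cpt1a, which forms the carnitine esters, fell by 0.70 in Fz4 KO and by 0.87 in Lrp5 KO. Of 17 genes of the tricarboxylic acid cycle, 2 rose in Fz4 KO, 2 fell in Lrp5 KO, and 4 rose and 1 fell in Norrin KO, among them citrate synthase (Cs), which rose by 0.49. Of 16 glycolysis genes, 1 rose and 1 fell in Fz4 KO, 1 rose in Lrp5 KO, and 5 rose and 2 fell in Norrin KO.

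Regulators of mitochondrial genes showed 1 shared rise. Pprc1, a coactivator related to PGC-1 alpha, averaged 9.78 ± 0.18 in Fz4 KO, 9.89 ± 0.16 in Lrp5 KO and 9.78 ± 0.17 in Norrin KO, against 8.77 ± 0.48 in WT (SD, n = 3 each and 6), and rose by 1.02, 1.13 and 1.02. Of the 16 genes of this list, Fz4 KO had 2 that rose and 1 that fell, Lrp5 KO 1 and 1, and Norrin KO 3 and 1. Ssbp1, which coats single-stranded mitochondrial DNA, fell by 0.83 in Fz4 KO and by 0.64 in Lrp5 KO, and Ppargc1b fell by 1.34 in Norrin KO. Of 18 carriers and import genes, 2 rose in Fz4 KO, 1 in Lrp5 KO, and 3 rose and 4 fell in Norrin KO.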

How the data were processed

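RNA of 15 pools was hybridised to Affymetrix mouse arrays. The deposited values are log2 signals of 45101 probe sets, made with RMA by the authors per the submitters' processing notes; whether all arrays were normalized together is not given in the sources used here. Probe sets were named from the platform's annotation: 34958 had 1 symbol, 932 several and 9211 none. The brightest probe set with 1 symbol stood for each of 18194 genes, with no filter on dim signals. Probe sets were also fitted singly. Group means of all 15 arrays were fitted in limma 3.58.1 (R 4.3.3, lmFit and eBayes, 11 residual degrees of freedom), with Benjamini-Hochberg adjustment over all genes of a contrast and a threshold of 0.05. The fit was tested on simulated data. The p-values rest on how pools of a group vary, and the number of arrays limits precision. The members and gene lists were chosen with earlier results of these data known. Named were the largest calls in each contrast, paralogs, the catalytic core and the brightest and dimmest members. Replicate numbers were not taken to pair the arrays: deviations of same-numbered arrays from their group means correlated at -0.0914 to 0.376 between mutants and WT. Lrp5 KO 1 to 3 and WT 4 to 6, matched by spike controls and sex genes in an earlier analysis, correlated at 0.694, 0.383 and 0.241, and that match, with Fz4 KO 1 to 3 and WT 1 to 3, was run as a block. The Norrin KO arrays have no WT arrays in that match and were left out of that block. Alternatives were other normalizations, probe set choices, a filter on dim genes, moderation, blocks and leaving out arrays.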

Additional observations from a re-analysis of the deposited data

Results flagged for a closer look

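In 10 of the 90 members a single WT array stood away from the other WT arrays, by a gap that chance gives in about 1 in 20 groups, or 4.5 of 90, and genes of 1 array are not independent. In 9 of the 10 the array was WT 4, which was low for Cox6b1 (12.15, the others 12.42 to 12.57), Ndufa12 (10.64, the others 11.04 to 11.21), Ndufab1 (9.63, the others 9.97 to 10.09), Ndufaf1 (5.41, the others 6.81 to 7.30), Ndufaf2 (8.48, the others 9.22 to 9.52), Ndufaf4 (7.51, the others 8.13 to 8.42), Ndufb11 (12.57, the others 12.74 to 12.83), Ndufb8 (10.46, the others 10.95 to 11.24) and Uqcrc2 (11.59, the others 11.82 to 11.89). WT 2 was low for Ndufs8 (10.77, the others 10.90 to 10.97).

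Members whose difference from WT was not the same in 2 mutants were found in the contrasts with Norrin KO. As Fz4 KO minus Norrin KO these were Ndufa5 (-1.28), Ndufs7 (-1.09), Uqcrc2 (-0.85), Ndufc1 (-0.80), Atp5md (-0.76), Ndufa3 (-0.75), Ndufa6 (-0.69), Atp5j2 (-0.65), Ndufc2 (-0.62), Atp5pb (0.57), Ndufb9 (0.80) and Uqcrc1 (1.00), with adjusted p from 0.00886 to 0.0425 in limma.

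As Lrp5 KO minus Norrin KO they were Ndufa5 (-1.39), Uqcrq (-1.18), Ndufs7 (-1.16), Uqcrc2 (-0.94), Ndufa3 (-0.89), Ndufv1 (-0.85), Ndufc1 (-0.82), Uqcr10 (-0.80), Ndufa6 (-0.77), Atp5md (-0.76), Atp5j2 (-0.73), Ndufb2 (-0.73), Ndufa1 (-0.63), Atp5e (-0.63), Ndufc2 (-0.60), Cox5b (-0.58), Ndufa2 (-0.53), Atp5l (-0.49) and Atp5mpl (-0.46), and, higher in Lrp5 KO, Uqcrb (0.55), Ndufb9 (0.64), Ndufb10 (0.77) and Uqcrc1 (0.80), with adjusted p from 0.0021 to 0.0486 in limma. The cause of these differences was not tested.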

How the results depend on the processing

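Calls that were kept under every alternative run were 3 of 6 in Fz4 KO (Cox4i2, Ndufa7, Ndufaf7), 2 of 7 in Lrp5 KO (Ndufa7, Ndufaf7), 14 of 29 in Norrin KO, 5 of 18 for the mean of the mutants, and none of the 12 and 23 between mutants. The block by spike controls was run for Fz4 KO and Lrp5 KO against WT only. The replicate numbers shared by the groups gave, as a block, 1 higher member in Fz4 KO, against 4 without the block, 1 higher and 2 lower in Lrp5 KO (2 and 5), 9 higher in Norrin KO (19), 2 higher and 3 lower for the mean (7 and 11), and 2 and 14 calls between Norrin KO and Fz4 or Lrp5 KO (12 and 23). Under this block Ndufa4l2 did not pass in Fz4 KO or Norrin KO, nor Ndufaf7 in Norrin KO (adjusted p = 0.0606, limma). A second quantile normalization gave 4 lower in Fz4 KO and 4 higher in Lrp5 KO, arrays matched by spike controls as a block gave 4 and 4, and centring gave 1 higher in Lrp5 KO. Leaving out probe sets ending in x or s gave 1 lower in Fz4 KO and 1 higher in Lrp5 KO. Genes above the median gave 4 higher in Lrp5 KO and 19 calls between Fz4 KO and Norrin KO, as did trend and robust moderation (19). With only the groups compared, Lrp5 KO had 1 higher and 3 lower, and the contrasts with Norrin KO 0 (Fz4 KO) and 1 (Lrp5 KO). Without Lrp5 KO 1, Lrp5 KO 3 and WT 4 there were 4 lower in Fz4 KO, 1 higher and 2 lower in Lrp5 KO, and 0 calls between Lrp5 KO and Norrin KO. Leaving out each array in turn gave 1 to 4 higher and 2 to 4 lower in Fz4 KO (1 higher without Fz4 KO 2, 4 lower without WT 4), 1 to 3 higher and 2 to 8 lower in Lrp5 KO, 15 to 23 and 8 to 13 in Norrin KO, 6 to 8 and 8 to 11 for the mean, and 0, 4 to 14 and 13 to 26 calls between Fz4 and Lrp5, Fz4 and Norrin, and Lrp5 and Norrin KO. In Norrin KO a dimmer probe set had the opposite sign for Atp5j2 (-0.21), Ndufv1 (-0.036), Uqcrq (-0.21 and -0.10) and Ndufs8 (-0.46 and -0.41, the first also without probe sets ending in x or s). The cause was not tested. Members with WT signals under the array median can hide a change.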
